A study of Mus musculus with 13 samples.

Results

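The genes induced by interferon and the genes of the mouse major histocompatibility complex (MHC, named H2 in the mouse) were described across tip, stalk and nonvascular samples of mouse retina. Members were chosen by symbol: the Ifi, Ifit, Ifitm, Irf, Gbp, Oas, Irgm, Mx, Isg and H2 families together with single genes such as Stat2. The rule found 95 genes, measured by 134 probes, among the 33392 genes on the arrays. RNA was hybridised to 2-colour Agilent arrays from 6 tip samples, 4 stalk samples and 3 samples of retina without vessels. Each array set its sample, in red, against the same commercial pool of mouse RNA, in green, so every level below is the log2 ratio of a sample to that pool. Tip and stalk are the labels' names for the vascular fractions: in a growing vessel, tip cells lead the sprout and stalk cells follow. The labels give no strain, age, treatment or genotype, and they do not say how the cells were collected or which samples came from the same animal. The p-values therefore measure only the spread between these samples, part of which may be technical.

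Interferons are secreted signals that bind receptor pairs on most cells. The receptors activate Jak kinases, which phosphorylate STAT transcription factors, and these, alone or with Irf9, enter the nucleus and switch on several families of antiviral genes. MHC class I molecules show peptides from inside the cell on nearly all cell types, whereas class II molecules are mainly found on specialised antigen-presenting cells. Endothelial cells are known to respond to both type I and type II interferon.

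Because many of these genes are known to be switched on through short DNA elements, the sequence before their start sites was read from RefSeq (GRCm38.p6). Of the 95 members, 70 had an entry. The 250 bases before each start were searched on both strands for GAAA and GAAA separated by any 2 bases, a core of the interferon-stimulated response element (ISRE) bound by complexes of STAT factors with Irf9, and for TTCNNNGAA, the gamma-activated site (GAS) bound by pairs of STAT factors. The first was present in 21 of the 70 members (30%), against 936 of 27025 genes of the whole table (3.46%). Outside the H2 genes it was found in 19 of 45 members (42.2%), and among the H2 genes in 2 of 25 (8%). The second was present in 13 of the 70 members (18.6%), against 2197 of all genes (8.13%). A gene was counted if any of its listed starts had a match. Members of a family are related by duplication, so their promoters are not independent, and a match to these letters is not a binding site.

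The 220 bases directly before the start are shown for 6 members to which the comparisons below return, with matches in capitals. Gbp3 (chr3:142559824-142560043, plus strand) and Irgm2 (chr11:58214757-58214976, plus strand) are GTPases that were lower in tip than in stalk samples. Isg15 (chr4:156200819-156201038, minus strand) is a classical interferon-induced gene, shown for its run of overlapping ISRE matches. Irf1 (chr11:53769794-53770013, plus strand) and Irf8 (chr8:120736138-120736357, plus strand) are transcription factors with large differences, and both held GAS matches but no ISRE match. Ifitm3 (chr7:141010745-141010964, minus strand) differed in all 3 comparisons and held neither. Ifi27 had no entry.
Gbp3: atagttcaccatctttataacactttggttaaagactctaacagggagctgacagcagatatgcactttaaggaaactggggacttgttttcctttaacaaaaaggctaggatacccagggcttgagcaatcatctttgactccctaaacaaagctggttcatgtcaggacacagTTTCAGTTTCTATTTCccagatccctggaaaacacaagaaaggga
Irgm2: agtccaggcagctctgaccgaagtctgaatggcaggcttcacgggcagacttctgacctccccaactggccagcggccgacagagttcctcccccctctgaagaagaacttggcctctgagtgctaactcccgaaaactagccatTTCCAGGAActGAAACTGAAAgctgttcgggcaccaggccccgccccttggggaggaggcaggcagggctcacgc
Isg15: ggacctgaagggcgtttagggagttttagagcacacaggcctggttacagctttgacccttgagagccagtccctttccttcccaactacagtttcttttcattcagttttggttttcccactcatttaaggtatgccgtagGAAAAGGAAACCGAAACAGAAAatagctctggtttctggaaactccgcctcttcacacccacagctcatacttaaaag
Irf1: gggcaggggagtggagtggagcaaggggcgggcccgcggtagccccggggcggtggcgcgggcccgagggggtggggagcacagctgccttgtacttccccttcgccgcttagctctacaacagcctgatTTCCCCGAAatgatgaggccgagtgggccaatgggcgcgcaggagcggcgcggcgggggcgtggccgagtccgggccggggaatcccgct
Irf8: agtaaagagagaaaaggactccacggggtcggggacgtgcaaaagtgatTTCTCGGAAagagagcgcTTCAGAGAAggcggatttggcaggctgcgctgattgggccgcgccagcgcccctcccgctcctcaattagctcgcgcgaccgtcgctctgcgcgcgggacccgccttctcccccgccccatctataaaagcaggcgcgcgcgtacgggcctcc
Ifitm3: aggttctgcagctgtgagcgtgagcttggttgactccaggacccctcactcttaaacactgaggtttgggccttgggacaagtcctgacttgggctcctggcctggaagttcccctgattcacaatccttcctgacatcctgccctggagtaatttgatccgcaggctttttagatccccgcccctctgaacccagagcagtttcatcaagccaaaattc
Gbp3 held 2 overlapping ISRE matches, Isg15 held 3 in one run, and Irgm2 held 1 ISRE match beside 1 GAS match. Irf1 held 1 GAS match and Irf8 held 2. Gbp3, Irf1 and Irf8 each have 2 listed starts. The first is shown, and the 250 bases before the second held neither element.

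The samples matched their labels in vessel content. Of 20 pan-endothelial markers, 19 were called higher in tip and 18 in stalk than in nonvascular samples, beside 11.1% and 11.3% of all genes. The median ratio of these markers was 2.72 to 3.23 on the tip arrays, 3.42 to 3.55 on the stalk arrays and 0.13 to 0.25 on the nonvascular arrays. The vascular fractions were not pure endothelium. The 14 pericyte and smooth muscle markers had median ratios of 0.69 to 1.36 on tip arrays and 1.66 to 2.26 on stalk arrays. On nonvascular arrays these were -0.52 to -0.21. Of the 14, 9 were called lower in tip than in stalk samples, beside 1.32% of all genes. Microglia and macrophage markers gave signal in every fraction, which does not show how many such cells were there. Their median ratio was 0.03 to 0.26 on tip arrays, 0.11 to 0.38 on stalk arrays and 0.51 to 0.79 on nonvascular arrays. Of the 24 markers, 22 were well above background on all 13 arrays, as were 27376 of the 31873 genes tested. None of those 24 was called between tip and stalk samples, where 2.8% of all genes were called in either direction. Against nonvascular samples 10 were called lower in tip and 9 in stalk samples, beside 16.8% and 18.6% of all genes. Between tip and stalk samples 0 of 13 lymphocyte and dendritic cell markers were called, and 1 of 10 astrocyte markers was called lower in tip. The part of any of these cell types in the differences below was not tested. In RNA from such mixtures, fewer cells of a type and less RNA per cell cannot be told apart.

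Of the 95 members, 94 were bright enough to be tested, 78 of them well above background on all 13 arrays, and none was saturated. H2-M10.6 was not tested. A gene was called where limma's moderated test gave a Benjamini-Hochberg adjusted p under 0.05 over all 31873 genes tested. Between tip and stalk samples, 1 member was called higher in tip (1.47% of all genes were) and 4 were called lower (1.32% of all genes were). Called members thus made up 5 of 94, against 2.8% of all genes called in either direction. Against nonvascular retina, 22 members were called higher in tip samples and 1 lower, beside 11.1% of all genes called higher, 16.8% called lower and 28% called in either direction. In stalk samples 23 were called higher than in nonvascular samples and 3 lower, beside 11.3%, 18.6% and, in either direction, 29.9% of all genes. Both comparisons with nonvascular retina use the same 3 nonvascular arrays, so they are not independent. The small counts depended on single arrays. The count of members lower in tip than in stalk samples was 2 without stalk replicate 3, and the count of members higher was 3 without tip replicate 6. The count lower in tip than in nonvascular samples was 6 without nonvascular replicate 3, 3 without stalk replicate 3 or tip replicate 6, and 2 without nonvascular replicate 1 or tip replicate 1, 2 or 5. The count lower in stalk than in nonvascular samples was 6 without nonvascular replicate 3, 5 without tip replicate 6 and 1 without nonvascular replicate 2. The median difference of the members was -0.03 for tip minus stalk, 0.12 for tip minus nonvascular and 0.09 for stalk minus nonvascular, where that of all genes was 0.00, -0.01 and -0.00.

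**Figure D1:**
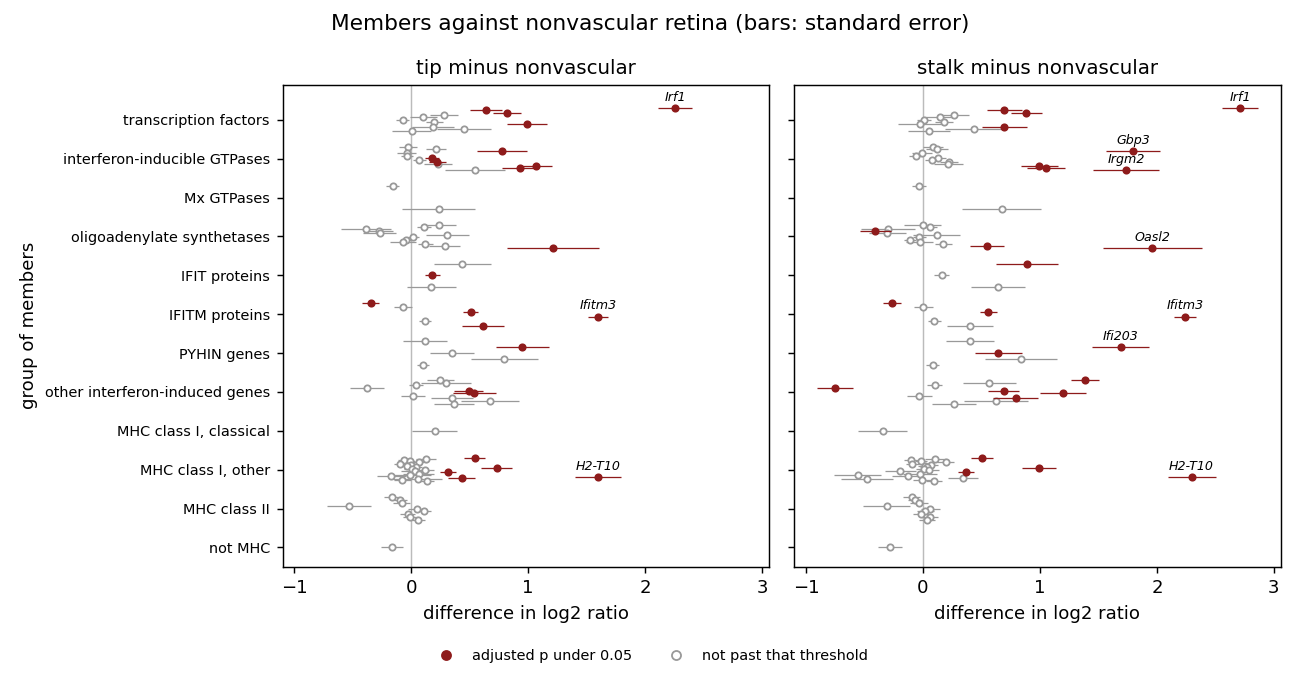
Difference in log2 ratio (horizontal axis) of each of the 94 tested members between tip and nonvascular samples (left) and between stalk and nonvascular samples (right), grouped by role, with standard errors as bars; filled points passed an adjusted p of 0.05 and names mark called differences beyond 1.5. The called members lie almost all to the right of 0, with Irf1 farthest at 2.26 and 2.71, and no MHC class II gene is filled.

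The interferon genes themselves gave ratios close to 0 throughout. Such a ratio means a signal like that of the reference pool and does not show how much RNA was present. For the 6 listed ligand genes (Ifna1, Ifna4, Ifnb1, Ifne, Ifng and Ifnk) all ratios lay between -0.17 and 0.30 on the 13 arrays. Of the 5 that could be tested, 0 were called in each of the comparisons.

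Some receptor chains differed between the vascular fractions and nonvascular retina. Of 11 tested ligand and receptor genes, 3 were called higher in tip and 3 in stalk than in nonvascular samples, and 0 lower. Of all genes, 11.1% and 11.3% were called higher. Ifnar2, a chain of the type I interferon receptor, had ratios of -1.15, -1.04 and -0.77 (lowest, median and highest) in tip samples and -0.72, -0.78, -0.85 and -0.90 in stalk samples, against -1.59, -1.65 and -1.42 in nonvascular samples. Neither vascular group overlapped the nonvascular arrays, and the differences were 0.55 ± 0.09 (SE, adjusted p = 0.000383) for tip and 0.74 ± 0.10 (adjusted p = 5.67e-05) for stalk. Ifnar1, the other chain, was higher in tip than in nonvascular samples by 0.53 ± 0.17 (adjusted p = 0.0373), while its stalk minus nonvascular difference was 0.03 ± 0.19. Ifngr1, a chain of the type II receptor, differed by 0.36 ± 0.13 in tip samples (adjusted p = 0.0507) and was called higher in stalk samples at 0.50 ± 0.14 (adjusted p = 0.0136). Il10rb, a chain shared by the interleukin 10 and interferon lambda receptors, showed the largest difference of the chains named here, 1.70 ± 0.13 in tip and 1.27 ± 0.14 in stalk samples. Between tip and stalk samples 0 of these 11 genes were called, beside 2.8% of all genes called in either direction. Of the 11, 4 had an unadjusted p under 0.05 in limma's test.

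Downstream of the receptors, Jak1, a kinase common to the interferon receptors, was lower in both vascular groups than in nonvascular retina, by -0.63 ± 0.16 in tip (adjusted p = 0.0115) and -0.81 ± 0.18 in stalk samples (adjusted p = 0.00334). Stat3, which relays interleukin 6 and related signals, was the only one of 13 kinases, brakes and related STATs called between tip and stalk samples, at -0.73 ± 0.16 (adjusted p = 0.033). It was also higher than in nonvascular retina by 1.12 ± 0.18 in tip and 1.86 ± 0.19 in stalk samples. Socs3, a feedback inhibitor of Jak signalling, was higher in tip by 0.61 ± 0.13 and in stalk by 0.56 ± 0.14. In the sensors of foreign nucleic acid, 5 of 13 genes were called higher and 1 lower in tip than in nonvascular samples. In stalk samples 4 were called higher and 2 lower. Over all genes the shares were 11.1% higher and 16.8% lower in tip, and 11.3% and 18.6% in stalk samples. Trim25, a ubiquitin ligase that activates the RNA sensor RIG-I, differed most among those named here, by 1.32 ± 0.18 and 1.78 ± 0.19. Mavs, the adaptor of RNA sensors on mitochondria, differed by 0.52 ± 0.11 in tip and 0.74 ± 0.12 in stalk samples. Myd88, the adaptor of Toll-like receptors, differed by 0.27 ± 0.07 in tip and 0.24 ± 0.08 in stalk samples. The RNA sensor Ifih1 differed by 0.49 ± 0.14 in tip and 0.73 ± 0.15 in stalk samples.

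Among the transcription factors, Irf1 gave the largest difference of any member. Irf1 activates antiviral and MHC class I genes. Its ratios were -1.36, -1.22 and -0.78 (lowest, median and highest) in tip samples and -0.50, -0.68, -0.62 and -1.04 in stalk samples, against -3.62, -3.47 and -3.18 in nonvascular samples. No vascular array reached the nonvascular range. The difference was 2.26 ± 0.14, or 4.78-fold, for tip (adjusted p = 1.41e-07) and 2.71 ± 0.15, or 6.56-fold, for stalk samples (adjusted p = 5.77e-08). A second, dimmer probe for Irf1 differed by only 0.13 and 0.15 in the same direction. Between tip and stalk samples Irf1 differed by -0.46 ± 0.13 and was not called (adjusted p = 0.0842). It was called without tip replicate 5 (-0.54, adjusted p = 0.0338) and without stalk replicate 4 (-0.57, adjusted p = 0.0391).

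Irf8 was the one member higher in tip than in stalk samples. Irf8 is a factor of macrophages, microglia and dendritic cells. Its ratios were 1.21, 1.53 and 1.99 (lowest, median and highest) in tip samples, against 0.29, 0.44, 0.53 and 0.85 in stalk samples. The nonvascular samples had 0.55, 0.83 and 0.30. Every tip array lay above every stalk and every nonvascular array, while the stalk and nonvascular arrays overlapped. The tip minus stalk difference was 1.02 ± 0.15, or 2.03-fold (adjusted p = 0.00412), and the tip minus nonvascular difference was 0.99 ± 0.17 (adjusted p = 0.000556). With median centring in place of loess the tip minus stalk difference kept its direction but was not called (adjusted p = 0.0576). The stalk minus nonvascular difference was -0.03 ± 0.18. A second, dimmer Irf8 probe did not show this pattern, with differences of 0.04 between tip and stalk and 0.11 between tip and nonvascular samples. Of the 24 microglia and macrophage markers none was called between tip and stalk samples. Their differences ran from -0.27 to 0.53, with 10 above 0, 14 below and 3 at an unadjusted p under 0.05. Against nonvascular samples 20 of the 24 were lower in tip samples and 4 higher. Of these markers 10 were called lower in tip, beside 16.8% of all genes, and 0 higher. Their part in the Irf8 difference was not tested.

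The factors Irf2 and Irf3 were higher in both vascular groups than in nonvascular retina. Irf3, which responds to cytosolic nucleic acid, differed by 0.82 ± 0.12 in tip (adjusted p = 0.000187) and 0.88 ± 0.13 in stalk samples (adjusted p = 0.000178), with no overlap between either group and the nonvascular arrays. Irf2, which binds the same DNA element as Irf1, differed by 0.64 ± 0.14 and 0.70 ± 0.15, and its tip call was lost with median centring (0.53, adjusted p = 0.0669) and in the red channel alone (0.39, adjusted p = 0.207). Irf9, a DNA-binding partner of Stat2, was called higher in stalk than in nonvascular samples, at 0.69 ± 0.19 (adjusted p = 0.014; 0.61 and adjusted p = 0.0671 without nonvascular replicate 2, 0.60 and adjusted p = 0.0731 with median centring, and adjusted p = 0.0625 with only these 2 groups fitted), while its tip minus nonvascular difference was 0.19 ± 0.18 and its tip minus stalk difference -0.51 ± 0.16 (adjusted p = 0.119). A second, dimmer Irf9 probe differed by only 0.12 between stalk and nonvascular samples and by -0.04 between tip and stalk samples. Irf7, an amplifier of type I interferon production, was not called, with differences of 0.20 ± 0.07 and 0.18 ± 0.08 from nonvascular retina. Without tip replicate 1 both Irf7 differences were called (0.24, adjusted p = 0.00512, in tip and adjusted p = 0.0344 in stalk samples).

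Stat2 was not called in any comparison. Its ratios averaged -1.33 ± 0.08 in tip (SD, n = 6), -1.29 ± 0.41 in stalk (n = 4) and -1.34 ± 0.26 in nonvascular samples (n = 3).

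Among the interferon-inducible GTPases, which attack the vacuoles of intracellular microbes, 2 of 12 were called lower in tip than in stalk samples. Of all genes, 1.32% were called lower there, and the median difference of the class was -0.004. Gbp3, a guanylate-binding protein, had ratios of -2.36, -2.01 and -1.50 (lowest, median and highest) in tip samples, against -1.04, -0.67, -0.69 and -1.55 in stalk samples, and -2.90, -2.78 and -2.67 in nonvascular samples. Only stalk replicate 4 lay within the tip range, and no vascular array reached the nonvascular ones. Gbp3 was lower in tip than in stalk samples by -1.02 ± 0.19, or 2.03-fold (adjusted p = 0.0158), and higher than in nonvascular retina by 0.78 ± 0.21 in tip (adjusted p = 0.0141) and 1.80 ± 0.23 in stalk samples (adjusted p = 5.05e-05). Without nonvascular replicate 1 the tip minus nonvascular difference was 0.72 and not called (adjusted p = 0.0643), nor was it in the red channel alone (0.58, adjusted p = 0.135).

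Irgm2, an immunity-related GTPase, had ratios of -1.73, -1.15 and -0.69 in tip samples (lowest, median and highest), against 0.14, -0.01, 0.72 and -0.71 in stalk samples, and -1.62, -1.69 and -1.80 in nonvascular samples. Stalk replicate 4 lay within the tip range and the other stalk arrays lay above it, and the tip and nonvascular ranges overlapped as well. The tip minus stalk difference was -1.19 ± 0.24, or 2.28-fold lower (adjusted p = 0.0196), and the stalk minus nonvascular difference was 1.74 ± 0.28 (adjusted p = 0.000341), while the tip minus nonvascular difference of 0.54 ± 0.26 was not called (adjusted p = 0.148). Both tip minus stalk calls were lost without stalk replicate 3: Gbp3 then differed by -0.92 (adjusted p = 0.0575) and Irgm2 by -0.96 (adjusted p = 0.0506). Without stalk replicate 1 Irgm2 was not called either (-1.16, adjusted p = 0.0623). With array brightness as a covariate neither was called, at -1.03 for Gbp3 (adjusted p = 0.112) and -1.38 for Irgm2 (adjusted p = 0.0557).

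Irgm1 and Ifi47, GTPases of the same class, were higher in both vascular groups than in nonvascular retina and did not differ beyond the threshold between tip and stalk samples. Ifi47 averaged 0.26 ± 0.22 in tip (SD, n = 6) and 0.19 ± 0.28 in stalk samples (n = 4), against -0.80 ± 0.07 in nonvascular samples (n = 3), differences of 1.06 ± 0.14 and 1.00 ± 0.16 (SE). For Irgm1 the differences were 0.93 ± 0.15 and 1.05 ± 0.16 on the brightest probe and 0.20 and 0.08 on a second. Gbp2 was not called in any comparison, with mean ratios of -0.14 in tip, -0.03 in stalk and -0.11 in nonvascular samples. Counted over the class, 5 of 12 were called higher in tip and 4 in stalk than in nonvascular samples, and 0 lower. Of all genes, 11.1% and 11.3% were called higher.

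**Figure D2:**
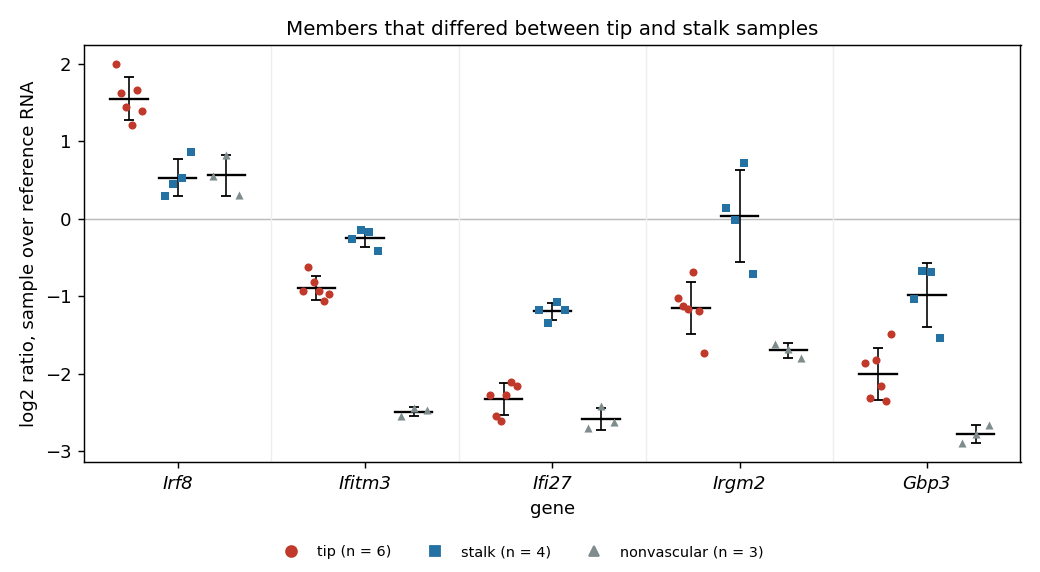
Log2 ratio of sample over reference RNA (vertical axis) on each array for the 5 members that differed between tip and stalk samples; points are arrays, horizontal bars group means and error bars the SD. Irf8 is highest in tip samples, Ifitm3 and Ifi27 are separated between tip and stalk samples without overlap, and Irgm2 and Gbp3 spread most among the 4 stalk arrays.

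The IFITM proteins, small membrane proteins that block virus entry, were split. Ifitm3 had ratios of -1.07, -0.94 and -0.62 in tip samples (lowest, median and highest), against -0.26, -0.15, -0.18 and -0.41 in stalk samples, and -2.55, -2.45 and -2.47 in nonvascular samples. The 3 groups did not overlap: stalk arrays were highest, tip arrays lay between, and nonvascular arrays were lowest. Ifitm3 was lower in tip than in stalk samples by -0.64 ± 0.08, or 1.56-fold (adjusted p = 0.0012), and higher than in nonvascular retina by 1.60 ± 0.09 in tip (3.03-fold, adjusted p = 5.04e-08) and 2.24 ± 0.10 in stalk samples (4.73-fold, adjusted p = 6.62e-09). Its neighbour in the family Ifitm2 was higher by 0.51 ± 0.07 in tip and 0.56 ± 0.07 in stalk samples and differed by -0.05 ± 0.06 between tip and stalk; with median centring neither was called (0.28, adjusted p = 0.181, and 0.38, adjusted p = 0.0771). Ifitm1 ran the other way from both and was called lower than in nonvascular retina, by -0.35 ± 0.07 in tip (adjusted p = 0.00259) and -0.27 ± 0.08 in stalk samples (adjusted p = 0.0191). For stalk samples Ifitm1 missed the threshold on leaving out stalk replicate 1 (-0.22, adjusted p = 0.0532), nonvascular replicate 1 (-0.26, adjusted p = 0.0654) or nonvascular replicate 2 (-0.22, adjusted p = 0.0964). It also missed it with the scanner software's log ratios or the authors' deposited ratios (-0.19, adjusted p = 0.232) and with only these 2 groups fitted (adjusted p = 0.053). In the red channel alone, without the reference, these Ifitm1 differences were 0.050 and 0.11, so their direction depends on the scale.

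Ifi27, a mitochondrial protein induced by type I interferon, had the smallest adjusted p of the members between tip and stalk samples. Its ratios were -2.61, -2.28 and -2.11 (lowest, median and highest) in tip samples, against -1.18, -1.35, -1.08 and -1.18 in stalk samples. The nonvascular samples had -2.70, -2.42 and -2.62. All stalk arrays lay above all tip and nonvascular arrays, and tip and nonvascular arrays overlapped. Ifi27 was lower in tip than in stalk samples by -1.13 ± 0.10, or 2.19-fold (adjusted p = 9.38e-05), and higher in stalk than in nonvascular samples by 1.38 ± 0.12 (adjusted p = 2.02e-06), while the tip minus nonvascular difference was 0.25 ± 0.11 (adjusted p = 0.124; 0.31 and adjusted p = 0.0441 without tip replicate 3). The pericyte and smooth muscle markers moved in the same direction between tip and stalk samples as Ifi27, Ifitm3, Gbp3 and Irgm2: their median difference was -0.75, with Pdgfrb, the receptor that marks pericytes, lower in tip by -0.72 ± 0.15 and Rgs5 by -0.98 ± 0.18. Of the 20 pan-endothelial markers, 7 were called lower and 1 higher in tip than in stalk samples (median difference -0.34). Of 12 ganglion cell markers, 1 was called higher in tip than in stalk samples (median difference 0.51). Over all genes 1.32% were called lower and 1.47% higher in that comparison. The part of these cells in the 4 differences was not tested.

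Among the classical antiviral effectors, Isg15 and Oasl2 were called higher in stalk than in nonvascular samples. Isg15, a ubiquitin-like protein, had ratios of -3.12, -2.48 and -2.25 in tip samples (lowest, median and highest), against -2.24, -2.45, -1.73 and -2.04 in stalk samples, and -2.84, -2.88 and -3.01 in nonvascular samples. It was higher in stalk than in nonvascular samples by 0.79 ± 0.19 (adjusted p = 0.00698; 0.51 and adjusted p = 0.133 with array brightness as a covariate), without overlap, whereas tip samples overlapped both groups (tip minus nonvascular 0.35 ± 0.18, tip minus stalk -0.44 ± 0.16). Without tip replicate 1, its lowest tip array, the tip minus nonvascular difference was 0.46 and called (adjusted p = 0.0276). Oasl2, a protein related to the oligoadenylate synthetases that detect double-stranded RNA, had -0.92, -0.64 and -0.22 in tip samples, against -0.91, 0.80, 1.32 and -0.60 in stalk samples, and -1.84, -1.79 and -1.79 in nonvascular samples. Stalk replicates 2 and 3 lay far above the other stalk arrays, and all vascular arrays lay above the nonvascular ones. Oasl2 was higher than in nonvascular retina by 1.21 ± 0.39 in tip (adjusted p = 0.0346) and 1.96 ± 0.42 in stalk samples (adjusted p = 0.00311). The tip call was lost in several alternatives, among them the removal of any 1 nonvascular array (adjusted p between 0.0824 and 0.098) and that of tip replicate 2, 3, 4 or 6 (adjusted p between 0.0503 and 0.0623).

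The IFIT proteins bind foreign RNA. Ifit1 was well above background on 4 tip, 3 stalk and 3 nonvascular arrays, with ratios of -2.75, -2.17 and -1.73 in tip samples (lowest, median and highest), against -2.04, -2.01, -1.08 and -1.98 in stalk samples, and -2.83, -2.41 and -2.77 in nonvascular samples. It was higher in stalk than in nonvascular samples by 0.89 ± 0.26 (adjusted p = 0.0208) and by 0.66 without stalk replicate 3 (adjusted p = 0.0425), but was not called without nonvascular replicate 1 (0.81, adjusted p = 0.0804) or 3 (0.84, adjusted p = 0.0639). Nor was it called with the scanner software's log ratios or the authors' deposited ratios (1.68, adjusted p = 0.11), in the red channel alone (0.58, adjusted p = 0.192) or with array brightness as a covariate (0.70, adjusted p = 0.185). Ifit3 just missed the threshold in that comparison (0.64 ± 0.23, adjusted p = 0.0504) and passed it without stalk replicate 1 (0.83), stalk replicate 4 (0.74) or tip replicate 1. Ifit2 was called in tip against nonvascular samples (0.18 ± 0.06, adjusted p = 0.0394), a call that was lost in 17 of 24 alternatives. The Mx GTPases, which trap viral nucleoproteins, were not called, and Mx1 gave mean ratios of -0.04 in tip, 0.09 in stalk and 0.12 in nonvascular samples. Mx1 was called lower in tip than in nonvascular samples without nonvascular replicate 3 (adjusted p = 0.0357), stalk replicate 3 (adjusted p = 0.0462) or tip replicate 6 (adjusted p = 0.0272). Of the 12 oligoadenylate synthetase genes, 1 was called higher in tip and 2 in stalk than in nonvascular samples. Over all genes those shares were 11.1% and 11.3%. Oas1d was called lower in stalk samples by -0.41 ± 0.13 (adjusted p = 0.0332), a call lost without nonvascular replicate 1 or 2 or stalk replicate 3 or 4 (-0.40 to -0.33), and with 5 other settings (-0.70 to -0.32). Its tip minus nonvascular difference was called without nonvascular replicate 3 (-0.43) or tip replicate 1 (-0.34). Oas1a, an oligoadenylate synthetase, was not called (0.24 ± 0.15 in tip, -0.00 ± 0.16 in stalk), except in tip samples without tip replicate 1 (0.34, adjusted p = 0.0317). Isg20, an exonuclease that degrades RNA, differed by 0.67 ± 0.25 in tip and 0.63 ± 0.27 in stalk samples, neither called; the tip difference was called without tip replicate 2 (0.76, adjusted p = 0.0432) or stalk replicate 3 (adjusted p = 0.0264).

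Stalk replicate 3 had the highest ratio of the 4 stalk arrays for 24 of the 61 tested members outside the H2 genes (39.3%), while over all genes it was highest for 28.2%. For Mx2, chosen here after its values were seen, it stood at 0.81 where the other stalk arrays lay at -0.91, -0.75 and -0.56. For Irf9 it stood at 0.52, where the others had -0.49, -0.29 and -0.02. This array also had the lowest median red signal over background of all 13 (98.1). Stalk replicate 4 was the lowest stalk array for 27 of the same 61 members (44.3%), against 22.7% of all genes. Tip replicate 1 was the lowest tip array for 25 of 61 (41.0%), against 20.2% of all genes. Tip replicate 4 was the highest tip array for 21 of 61 (34.4%), against 13.3% of all genes. Nonvascular replicate 3 was the lowest nonvascular array for 33 of 61 (54.1%), against 38.3% of all genes.

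**Figure D3:**
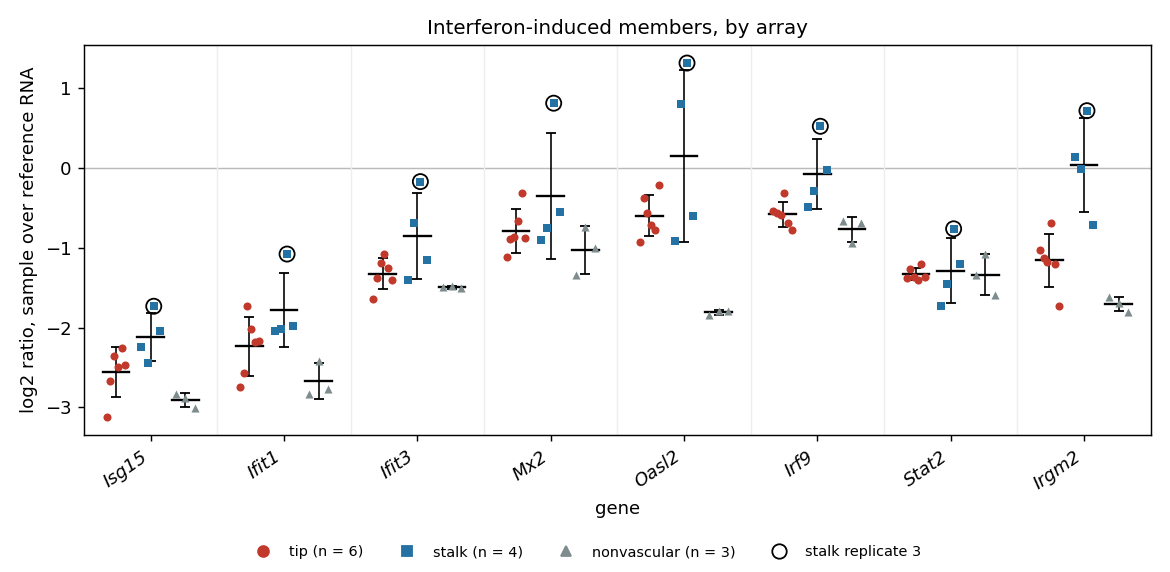
Log2 ratio of sample over reference RNA (vertical axis) on each array for 8 interferon-induced members, chosen after their values were seen; points are arrays, horizontal bars group means and error bars the SD, and the circle marks stalk replicate 3. The circled array is the highest stalk array for each gene shown, at 0.81 for Mx2 and 1.32 for Oasl2, and the nonvascular arrays lie close together for Ifit3 and Oasl2.

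The PYHIN proteins, which sense DNA, included Ifi203, with ratios of -2.49, -2.11 and -1.53 in tip samples (lowest, median and highest), against -1.71, -1.13, -0.79 and -1.72 in stalk samples, and -2.90, -2.94 and -3.25 in nonvascular samples. Both vascular groups lay above the nonvascular arrays and overlapped each other. Ifi203 was higher than in nonvascular retina by 0.95 ± 0.23 in tip (adjusted p = 0.00626) and 1.69 ± 0.24 in stalk samples (adjusted p = 0.000144). Its tip minus stalk difference was not called with all arrays, but was without tip replicate 3 (-0.85, adjusted p = 0.0492) and in the red channel alone (-0.97, adjusted p = 0.0346). Across the 5 PYHIN genes, 1 was called higher in tip and 2 in stalk samples, beside 11.1% and 11.3% of all genes. Ifi35, an interferon-induced protein that binds Nmi, was higher by 0.49 ± 0.12 in tip and 0.69 ± 0.13 in stalk samples. Nmi itself, which is no member by symbol, differed more, by 2.32 ± 0.26 in tip and 2.97 ± 0.28 in stalk samples.

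Ifi30, a lysosomal reductase that prepares antigens for MHC class II, was, like Ifitm1 and Oas1d, a member called lower in a vascular group. Its ratios were -1.01, -0.88 and -0.44 in tip samples (lowest, median and highest) and -1.04, -1.01, -1.58 and -1.06 in stalk samples, against -0.42, -0.41 and -0.43 in nonvascular samples. No vascular array reached the nonvascular level. The stalk minus nonvascular difference was -0.75 ± 0.16 (adjusted p = 0.00242; -0.57 and adjusted p = 0.0514 with array brightness as a covariate), and the tip minus nonvascular difference of -0.38 ± 0.15 was not called (adjusted p = 0.0731), though it was without tip replicate 2 (-0.45, adjusted p = 0.0253) or stalk replicate 3 (adjusted p = 0.0279), with median centring (-0.58, adjusted p = 0.0485) and in the red channel alone (-0.46, adjusted p = 0.0417). Ctss and Lgmn, lysosomal proteases that act in class II antigen processing and are made by microglia, were also lower than in nonvascular retina. They belong to a list of 9 tested genes of class II loading and control. Of these 9, 2 were called lower in tip and 4 in stalk samples, beside 16.8% and 18.6% of all genes. Ctss differed by -1.47 ± 0.31 in tip and -1.75 ± 0.34 in stalk samples, and Lgmn by -0.84 ± 0.17 and -1.10 ± 0.18. The microglia markers were lower in the same samples, as given above, and their part in these differences was not tested.

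With all arrays in the fit, no tested MHC class I gene was called between tip and stalk samples. The classical heavy chain H2-D1, which presents peptides to T cells, had ratios of -2.44, -1.78 and -1.64 in tip samples (lowest, median and highest), against -2.71, -2.13, -2.64 and -2.17 in stalk samples, and -1.79, -2.04 and -2.38 in nonvascular samples. The groups overlapped through tip replicate 6, and the tip minus stalk difference of 0.55 ± 0.18 was not called (adjusted p = 0.124). Without that array it was 0.66 and called (adjusted p = 0.0252). The nonclassical gene H2-T23, which presents leader peptides to natural killer cell receptors, had a tip minus stalk difference of 0.53 ± 0.19 (adjusted p = 0.159). For H2-Q7, named after its values were seen, that difference was 0.54 ± 0.17 (adjusted p = 0.115), and its means were -2.48 in tip, -3.02 in stalk and -2.46 in nonvascular samples. None of the 22 tested nonclassical class I genes was called between tip and stalk samples by limma, with 3 at an unadjusted p under 0.05. No probe carried the symbol H2-K1 of the other classical heavy chain. The arrays hold 2 probes annotated only as H-2K, which the symbol rule left out, and the brighter averaged -1.78 ± 0.25 in tip (SD, n = 6), -1.90 ± 0.05 in stalk (n = 4) and -1.75 ± 0.04 in nonvascular samples (n = 3), with no difference called.

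Against nonvascular retina, 5 of the 22 nonclassical class I genes were called higher in tip and 4 in stalk samples, with 0 lower. Of all genes, 11.1% and 11.3% were called higher. H2-T10 had ratios of -2.18, -1.85 and -1.22 on 5 tip arrays (lowest, median and highest; the spot of tip replicate 2 was marked as an outlier), against -1.15, -0.83, -1.22 and -1.18 on the stalk arrays and -3.52, -3.21 and -3.44 on the nonvascular arrays. Vascular arrays lay above all nonvascular arrays, and tip arrays lay below the stalk arrays, with tip replicate 6 close to stalk replicate 3. The differences from nonvascular retina were 1.59 ± 0.20 (3.02-fold, adjusted p = 6.17e-05) in tip and 2.30 ± 0.21 (4.91-fold, adjusted p = 4.48e-06) in stalk samples. The tip minus stalk difference was -0.70 ± 0.18 (adjusted p = 0.0647), and without tip replicate 6 it was -0.85 and called (adjusted p = 0.00938). H2-M3, named after its values were seen, presents formylated peptides and was higher by 0.73 ± 0.13 and 0.99 ± 0.15. On a second, dimmer probe H2-M3 differed by only 0.12 in tip and 0.20 in stalk samples. For H2-Bl, also named afterwards, the brightest probe was higher by 0.54 in tip and 0.51 in stalk samples, whereas its other 2 probes were lower, by -0.91 and -0.66 in tip samples. Class I genes share long stretches of similar sequence, and a probe may read more than one of them, which was not tested.

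B2m, the light chain that all class I molecules need, was higher in both vascular groups. Its ratios were -1.57, -1.27 and -1.01 in tip samples (lowest, median and highest) and -1.41, -1.70, -1.46 and -1.40 in stalk samples, against -3.05, -2.70 and -2.19 in nonvascular samples. Tip and stalk arrays overlapped, and all of them lay above the nonvascular arrays. The differences were 1.36 ± 0.16 in tip (2.57-fold, adjusted p = 2.6e-05) and 1.16 ± 0.17 in stalk samples (2.23-fold, adjusted p = 0.000185). Tapbp, the chaperone that bridges class I molecules to the peptide transporter, was higher by 0.66 ± 0.06 and 0.80 ± 0.06. Tap1, a subunit of that transporter, was called higher in tip samples (0.46 ± 0.14, adjusted p = 0.021), and its stalk minus nonvascular difference was 0.36 ± 0.15. Psme1, a subunit of the proteasome activator, ran the other way, at -0.89 ± 0.09 in tip and -0.76 ± 0.10 in stalk samples. Of 13 tested genes of peptide supply and loading, 5 were called higher and 1 lower in tip than in nonvascular samples. In stalk samples 4 were called higher and 1 lower. Over all genes the shares were 11.1% higher and 16.8% lower in tip, and 11.3% and 18.6% in stalk samples.

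MHC class II genes gave no called difference. Ratios near 0, as for the interferon genes, do not show how much class II RNA was present. Of the 9 tested class II genes 0 were called by limma in each comparison, with 0, 2 and 0 at an unadjusted p under 0.05 for tip minus stalk, tip minus nonvascular and stalk minus nonvascular. Mean ratios of H2-Aa were -0.09 ± 0.08 in tip (SD, n = 6), -0.02 ± 0.07 in stalk (n = 4) and 0.08 ± 0.15 in nonvascular samples (n = 3), and its tip minus nonvascular difference was called without nonvascular replicate 3 (-0.24, adjusted p = 0.0224) or tip replicate 5 (-0.20, adjusted p = 0.0485). H2-Ab1, its partner chain, averaged 0.23 ± 0.06 in tip, 0.26 ± 0.07 in stalk and 0.32 ± 0.09 in nonvascular samples. H2-Eb1 averaged -0.01 ± 0.05, -0.00 ± 0.11 and 0.02 ± 0.09 in tip, stalk and nonvascular samples, and the peptide exchange factor H2-DMa averaged -0.29 ± 0.09, -0.24 ± 0.09 and -0.21 ± 0.14. The largest difference of the class was that of H2-DMb1, named after its values were seen, at -0.53 ± 0.19 for tip minus nonvascular samples (adjusted p = 0.0536). Its nonvascular arrays were spread over -0.44, 0.66 and 0.38. Cd74, the invariant chain that escorts class II molecules, was not called either, with differences of 0.21 ± 0.12 in tip and 0.18 ± 0.13 in stalk samples from nonvascular retina.

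**Figure D4:**
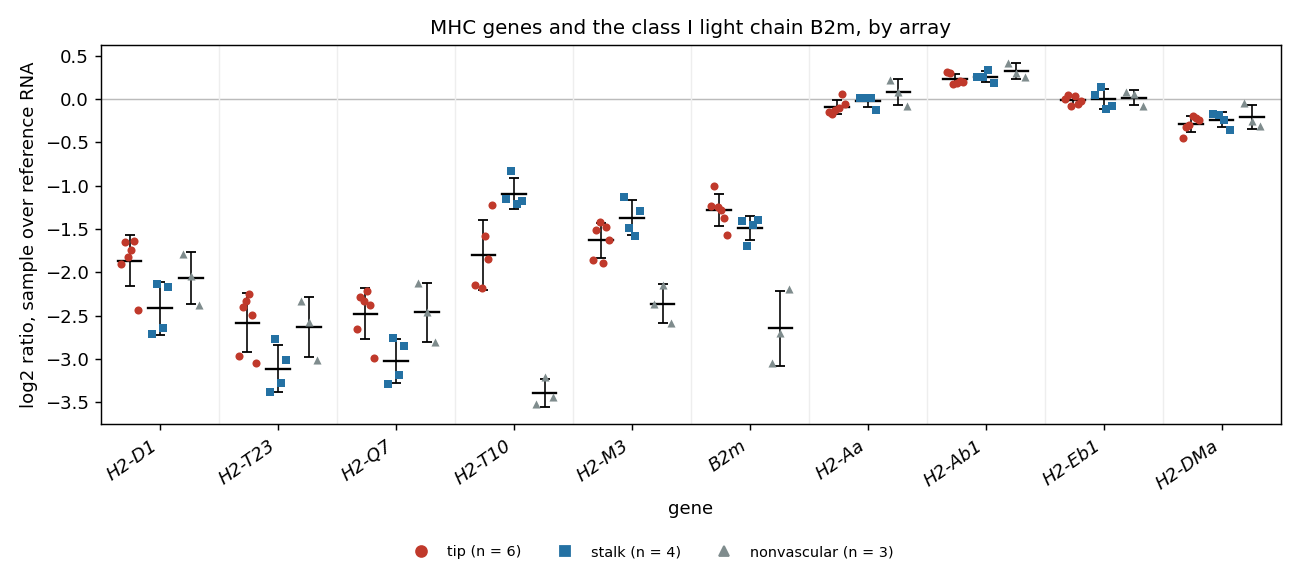
Log2 ratio of sample over reference RNA (vertical axis) on each array for 5 MHC class I genes, the light chain B2m and 4 class II genes; points are arrays, horizontal bars group means and error bars the SD. H2-T10, H2-M3 and B2m lie higher in tip and stalk than in nonvascular samples, while the 4 class II genes stay near 0 in every group, H2-Ab1 at 0.23, 0.26 and 0.32.

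Of 29 tested interferon-induced effectors outside the symbol families, 12 were called higher and 1 lower in tip than in nonvascular samples. In stalk samples 11 were called higher and 1 lower. Over all genes the shares were 11.1% higher and 16.8% lower in tip, and 11.3% and 18.6% in stalk samples. Between tip and stalk samples 1 of the 29 was called higher and 1 lower, beside 1.47% and 1.32% of all genes. Shisa5, an interferon-induced protein of the endoplasmic reticulum, had ratios of -0.31, -0.29 and -0.19 in tip samples (lowest, median and highest), against 0.02, 0.27, 0.08 and 0.06 in stalk samples, and -1.15, -0.96 and -1.22 in nonvascular samples. The 3 groups were separated without overlap, in the same order as for Ifitm3. Shisa5 was lower in tip than in stalk samples by -0.37 ± 0.06 (adjusted p = 0.00825) and higher than in nonvascular retina by 0.85 ± 0.07 in tip and 1.21 ± 0.07 in stalk samples. Parp12, an antiviral ADP-ribosyltransferase, was higher in tip than in stalk samples by 0.29 ± 0.07 (adjusted p = 0.0477), and its stalk minus nonvascular difference was 0.05 ± 0.08. Tor3a, an interferon-induced ATPase, was higher than in nonvascular retina by 1.13 ± 0.20 in tip and 1.82 ± 0.22 in stalk samples.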

How the data were processed

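Samples were grouped by the labels as 6 tip, 4 stalk and 3 nonvascular arrays. The scanner output came from Agilent Feature Extraction 8.5.1.1, per the file headers and the submitters' processing notes, and its mean intensity of each spot and of the local background is not normalized, per the file headers. The log10 ratio in the files is of processed red over green signal, after background subtraction and dye normalization, per the file headers. The authors' deposited processed values are linear ratios with array medians of 1.06 to 1.15, and at least 99.9% of these values equalled the antilog of that log10 ratio within 0.001. Neither was centred further, and both served as alternatives.

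Mean intensities were background-corrected (normexp, offset 50) and loess-normalized within arrays in limma 3.58.1 (R 4.3.3), with control spots at weight 0 and spots marked as outliers set to missing. The dyes were not swapped. Median red signal over background was 105 to 292 on tip arrays, 98.1 to 141 on stalk arrays and 166 to 282 on nonvascular arrays. Every stalk array was thus dimmer than every nonvascular array, so group and brightness cannot be fully told apart in that comparison. The number of arrays limits the precision.

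Of 41174 probes, 22072 were named through their accession and 2319 through their description from RefSeq (GRCm38.p6); the other 16783 kept the file's name. The brightest probe stood for its gene, and a gene had to be well above background in red on 3 of 13 arrays. In limma, 1 mean per group was estimated for each of the 31873 genes that passed, with moderated tests of the 3 differences. The script was tested on simulated data.

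The members and lists were chosen with earlier results of these data known. Values of 1 member are not reported here, though it is in the counts over all members. The text names members called between tip and stalk samples, the 8 largest called differences per direction from nonvascular retina, a fixed set of members, and up to 3 called genes per pathway list and comparison. Alternatives changed the background, normalization, filter, probe choice, samples, an array brightness term, a replicate block and each left-out array. They were read for the counts of members and for members named by the rule. Calls of genes from the pathway and marker lists, such as Parp12, Ifnar1 and Stat3, were not checked in this way.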

Additional observations from a re-analysis of the deposited data

Results flagged for a closer look

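Among 35 members named by the rule, each tip group of 6 and stalk group of 4 was searched for an array far from the rest, 70 groups in all. In 8 of them one array's gap to its nearest neighbour took up more of the group's range than Dixon's 95% critical value, which chance alone gives in about 1 in 20 groups. High arrays were tip replicate 5 for Irf1 (-0.78, the others -1.36 to -1.15), stalk replicate 2 for H2-T10 (-0.83, the others -1.22 to -1.15) and stalk replicate 3 for Ifit1 (-1.08, the others -2.04 to -1.98). Low arrays were tip replicate 6 for Irgm1 (-2.24, the others -1.91 to -1.75) and for H2-D1 (-2.44, the others -1.91 to -1.64). In the stalk group, replicate 4 was low for Irgm1 (-2.29, the others -1.64 to -1.56) and for H2-Aa (-0.12, the others 0.01 to 0.02), and replicate 3 was low for Ifi30 (-1.58, the others -1.06 to -1.01).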

How the results depend on the processing

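Counts of called members are given as alternative values beside the 1 higher and 4 lower for tip minus stalk, 22 and 1 for tip minus nonvascular, and 23 and 3 for stalk minus nonvascular. With the red channel alone the tip minus stalk count of lower members was 8, and with array brightness as a covariate it was 2. With median centring the higher count was 0. For tip minus nonvascular the lower count was 2 without background subtraction, with Feature Extraction log ratios, with the deposited table and with genes well above background on all 13 arrays. It was 3 with brightness as a covariate, 4 with the red channel alone and 5 with median centring. The higher count for tip minus nonvascular was 15 with median centring (6.83% of all genes) and 16 in the red channel alone (11.7%). It was 17 with Feature Extraction log ratios or the deposited table (10.9%). For stalk minus nonvascular the lower count was 5 with median centring and 1 with brightness as a covariate. The higher count there was 19 with brightness as a covariate (7.87% of all genes) and 26 in the red channel alone (12.5%). Leaving out 1 array at a time gave 1 to 3 higher and 2 to 6 lower for tip minus stalk, 15 to 28 and 1 to 6 for tip minus nonvascular, and 20 to 27 and 1 to 6 for stalk minus nonvascular.

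Deviations from the group means of same-numbered arrays correlated at -0.14 to 0.08. These values cannot tell whether equal replicate numbers mark a shared animal or day. With a replicate block the counts were 1 higher and 4 lower (3 of the original 4 among them, while Irgm2 was not, at -1.04 and adjusted p = 0.0932, and H2-T10 was called, at -0.81 and adjusted p = 0.0287) for tip minus stalk, 17 and 1 for tip minus nonvascular, and 21 and 3 for stalk minus nonvascular. Of the called differences of named members, 3 changed sign, all in the red channel alone: Ifitm1 at 0.050 for tip and 0.11 for stalk against nonvascular retina, and Ifit2 at -0.036 for tip. Aquantile scaling leaves ratios as they are by construction. A block for slide or scan date could not be fitted, because each array was on its own slide and 1 array alone was scanned on another day. Differences of named members that were not called, such as Ifi47 for tip minus stalk (-0.02 to 0.21) and H2-D1 for tip minus nonvascular (-0.03 to 0.34), also crossed 0 in some alternatives. The cause of the other changes was not tested.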
